A study of Homo sapiens with 6 samples.

Results

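SLC2A1 and SLC2A3 encode the glucose transporters GLUT1 and GLUT3. Both genes were chosen by symbol, and both had 1 entry each among the 2681 entries with values in the deposited comparison. Messenger RNA was sequenced from Hep3B cells, an established human hepatocellular carcinoma line labelled WT, after 24 hours at 1% oxygen (hypoxia, n = 3) or at 20% oxygen (normoxia, n = 3). All 6 samples also carry a treatment label of genetic modification, and the extraction text speaks of subclones, but no label names a modified gene or tells the samples apart by it. Nothing in the labels says that the libraries came from separate cultures, so p-values measure the spread between these libraries, which may be technical.

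GLUT1 and GLUT3 belong to the facilitative glucose transporters, membrane proteins that let glucose cross the plasma membrane down its gradient. GLUT1 supplies basal glucose uptake in most cells and is abundant in red blood cells and at the blood-brain barrier, and GLUT3 is the high-affinity form best known from neurons. The SLC2A1 gene is a textbook target of the hypoxia-inducible factor HIF-1, which is stabilized when oxygen falls and shifts cells towards glycolysis.

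In GENCODE 29, whose coordinates are on GRCh38, SLC2A1 (ENSG00000117394) lies on the minus strand of chromosome 1 from 42925375 to 42959176. SLC2A3 (ENSG00000059804) lies on the minus strand of chromosome 12 from 7919230 to 7936275. The longest coding transcript of each gene has 10 exons, with 1476 coding bases for SLC2A1 and 1488 for SLC2A3. The coding sequences of SLC2A3 and SLC2A1 were 70.1% identical over 1397 aligned bases. SLC2A14, a near copy of SLC2A3 on chromosome 12 from 7812512 to 7891148, was 96.6% identical to SLC2A3 over 1488 aligned bases, with 51 differing bases. A stretch of 60 coding bases is shown because it bears on which reads can be told apart. It was picked for an identity between SLC2A3 and SLC2A1 nearest to their overall value, without regard to SLC2A14. It is therefore no measure of how far SLC2A14 differs as a whole. Capitals mark bases that differ from SLC2A3, of which SLC2A14 has 1 and SLC2A1 has 18.
SLC2A3: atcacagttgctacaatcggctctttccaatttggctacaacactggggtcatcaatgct
SLC2A14: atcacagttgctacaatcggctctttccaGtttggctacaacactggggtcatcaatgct
SLC2A1: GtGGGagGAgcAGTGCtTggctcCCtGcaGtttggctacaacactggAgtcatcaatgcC

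Of all windows of 50 bases in the longest coding transcript of SLC2A3, 23.0% also occur in a SLC2A14 transcript and 24.1% occur in a transcript of any other gene. No such window was shared between SLC2A3 and SLC2A1. For SLC2A1, 1.74% of windows occur in another gene, and 3.49% of its transcript bases overlap other annotated exons, among them those of the antisense gene SLC2A1-AS1. SLC2A14 had no entry among those analysed here. The counting method is not given in the sources used here, so the part of the SLC2A3 reads that belongs to SLC2A14 cannot be told apart.

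The RefSeq promoter table (GRCh38.p14) held 1 of the 2 genes, SLC2A1, and it is shown because the core hypoxia response motif is read on promoters. The window chr1:42958819-42959118, on the minus strand, runs from 250 bases before to 50 bases after the annotated start. The window was searched on both strands for ACGTG and GCGTG. Capitals mark the 1 match, a GCGTG that begins at base 276 of the window, after the RefSeq start.
SLC2A1 promoter: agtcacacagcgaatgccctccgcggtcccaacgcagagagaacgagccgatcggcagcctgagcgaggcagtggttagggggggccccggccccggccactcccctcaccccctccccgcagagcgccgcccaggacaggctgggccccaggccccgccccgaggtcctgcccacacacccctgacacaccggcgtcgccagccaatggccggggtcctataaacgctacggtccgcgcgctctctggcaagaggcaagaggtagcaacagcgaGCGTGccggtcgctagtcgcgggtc
At least 1 match was present in 48.4% of the 35116 promoter windows of that length, so the match describes the letters and marks no site.

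The deposited table holds only entries that its authors selected as changed: its largest false discovery rate was 0.00999 and its smallest absolute log2 fold change was 1.00. Listed counts summed to between 9905692 and 10134230 in the hypoxia libraries and between 5474597 and 6128947 in the normoxia libraries, and these sums are not library depths. Libraries within a group differed by more than sampling noise: chi-square over its degrees of freedom ran from 13.1 to 267 for pairs of libraries of the same group. Hypoxia replicate 2 stood apart from its group, with a median absolute deviation from the group mean of 0.27 on the log2 scale over all fitted entries, against 0.13 and 0.18 in hypoxia replicates 1 and 3. Of 12 hepatocyte markers 6 had an entry, 2 called higher and 4 lower. Among all fitted entries 100% were called, 56.7% as higher and 43.3% as lower. ALB, AFP, APOB and FGB were lower: ALB, for example, had a mean of 1.74 FPKM in hypoxia and 5.05 FPKM in normoxia, and AFP had 0.744 FPKM in hypoxia and 3.73 FPKM in normoxia. TF and AHSG were higher: TF had a mean of 0.449 FPKM in hypoxia and 0.169 FPKM in normoxia, and AHSG had 2.27 FPKM in hypoxia and 0.522 FPKM in normoxia.

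SLC2A1 was an abundant transcript whose level rose by nearly an order of magnitude at 1% oxygen. Hypoxia replicates 1 to 3 held 24250, 17846 and 23861 SLC2A1 counts, and normoxia replicates 1 to 3 held 2354, 2504 and 2718. Divided by library scale, these counts gave 24392, 21147 and 23931 normalized counts in hypoxia and 2226, 2454 and 2453 normalized counts in normoxia. The groups lay far apart, and hypoxia replicate 2 was the lowest of its group on either scale. Among all fitted entries, 56.6% likewise had all hypoxia values above all normoxia values. SLC2A1 averaged 23157 ± 1756 normalized counts in hypoxia and 2378 ± 131 in normoxia (SD, n = 3 each), a ratio of 9.74. The log2 fold change was 3.28 (SE 0.14), with an adjusted p of 3.32e-06 (edgeR quasi-likelihood test, p-values adjusted by Benjamini-Hochberg over all fitted entries). The authors' deposited table also gives 3.28, which is no independent value, since the library scale was computed from its fold changes. The call has little weight by itself, since 100% of the 2675 fitted entries passed that test after the authors' selection, 56.7% of them as higher.

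On the authors' FPKM scale, which divides counts by transcript length and library total, SLC2A1 stood at 174, 129 and 173 FPKM in hypoxia replicates 1 to 3 and at 16.9, 20.4 and 21.5 FPKM in normoxia replicates 1 to 3. Its mean was 159 ± 26.0 FPKM in hypoxia and 19.6 ± 2.38 FPKM in normoxia (SD, n = 3 each), a ratio of 8.11. The ratio was thus smaller on FPKM than on normalized counts. Replacing the recovered scale by the library totals that the FPKM values imply shifted the median log2 fold change of all fitted entries by -0.27. limma on log2(FPKM + 0.1) gave SLC2A1 a log2 fold change of 3.01 (SE 0.16, adjusted p = 2.37e-06), in a fit that called 98.3% of all entries, 55.1% as higher. Within the listed entries, its FPKM percentile was 96.15, 94.95 and 96.19 in hypoxia replicates 1 to 3 and 75.81, 78.73 and 79.36 in normoxia replicates 1 to 3.

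SLC2A3 was present at a low level at 1% oxygen and all but undetected at 20% oxygen, and it rose. Hypoxia replicates 1 to 3 held 216, 143 and 298 SLC2A3 counts, and normoxia replicates 1 to 3 held 0, 6 and 2. Every hypoxia library lay above every normoxia library, as in 56.6% of all fitted entries, and hypoxia replicate 2 was again the lowest of its group. Mean normalized counts were 229 ± 65.4 in hypoxia and 2.56 ± 3.01 in normoxia (SD, n = 3 each), a ratio of 89.2. The ratio rests on 657 counts in hypoxia and 8 counts in normoxia, and counting error alone gave it an exact 95% interval of 46.6 to 215 around a ratio of summed counts of 92.3. The edgeR log2 fold change was 6.44 (SE 0.63, adjusted p = 5.77e-05). Without normoxia replicate 2, which held 6 of the 8 normoxia counts, it was 7.77, and without normoxia replicate 1, which held none, it was 5.87.

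In FPKM, SLC2A3 reached 1.44, 0.959 and 2.02 in hypoxia replicates 1 to 3, against 0, 0.0455 and 0.0107 in normoxia replicates 1 to 3. Its mean was 1.47 ± 0.533 FPKM in hypoxia and 0.0188 ± 0.0238 FPKM in normoxia (SD, n = 3 each). On the log2(FPKM + 0.1) scale the limma difference was 3.69 (SE 0.30, adjusted p = 1.46e-05), which understates the change of so low a gene. A pseudocount of 1 FPKM gave 1.26 and one of 0.01 FPKM gave 5.97, so the size of the FPKM change of SLC2A3 was set by that choice. Its FPKM percentile among the listed entries was 22.9, 19.9 and 29.8 in hypoxia replicates 1 to 3 and at most 1.53 in normoxia. In the files, 1 FPKM of SLC2A3 stood for 150, 149 and 147 counts in hypoxia replicates 1 to 3, against 132 and 186 counts in normoxia replicates 2 and 3.

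**Figure D1:**
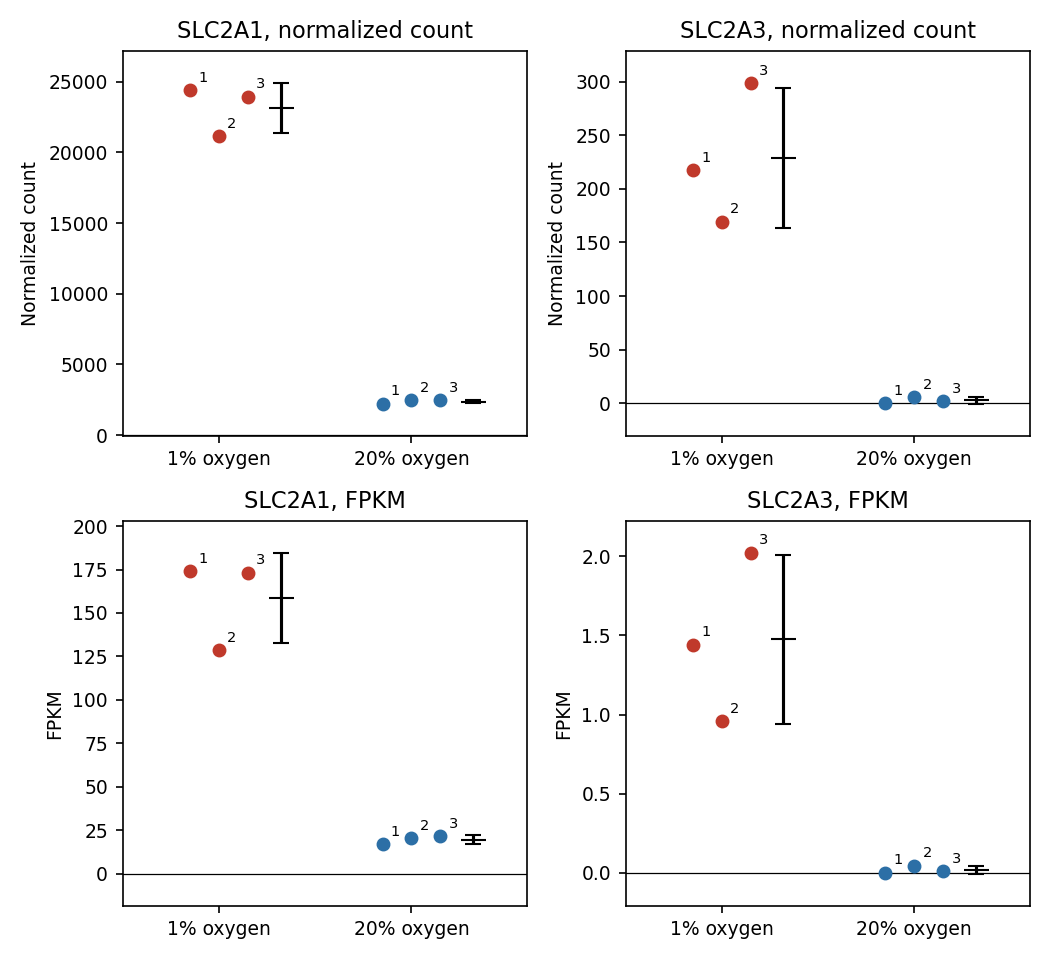
SLC2A1 (left) and SLC2A3 (right) in each library, as normalized counts (top) and FPKM (bottom), at 1% and 20% oxygen; points are libraries with their replicate number, and bars are the group mean ± SD (n = 3). The axes of the 2 genes differ in range: SLC2A1 runs to 24392 normalized counts and SLC2A3 to 299, and no hypoxia point reaches down to a normoxia point.

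SLC2A3 had the larger fold change and SLC2A1 by far the larger amount. By log2 fold change SLC2A3 ranked 22 and SLC2A1 ranked 157 among the 2675 fitted entries. Mean SLC2A1 FPKM was 107.6 times that of SLC2A3 in hypoxia, and even the normoxia mean of SLC2A1 was 13.3 times the hypoxia mean of SLC2A3. The pair together stood at 160 ± 26.4 FPKM in hypoxia and 19.6 ± 2.40 FPKM in normoxia (SD, n = 3 each), and SLC2A3 supplied 1.04% of that difference.

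As a share of the pair's FPKM, SLC2A3 made up 0.822%, 0.740% and 1.15% in hypoxia replicates 1 to 3 and 0%, 0.223% and 0.050% in normoxia replicates 1 to 3. The remainder, at least 98.8% in each of the 6 libraries, was SLC2A1. The mean share was 0.905% ± 0.220 in hypoxia and 0.0911% ± 0.117 in normoxia (SD, n = 3 each), a difference of 0.814 percentage points. Its direction, though not its size, held in every pairing of libraries across the groups. The exact permutation test over the 6 libraries was two-sided and gave p = 0.10, the smallest it can give with 3 against 3 (adjusted p = 0.10 over the 2 exact tests made).

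From counts, the share and its exact 95% interval (Clopper-Pearson) were 0.883% (0.769 to 1.01), 0.795% (0.670 to 0.936) and 1.23% (1.098 to 1.38) in hypoxia replicates 1 to 3. In normoxia replicate 2 it was 0.239% (0.0878 to 0.520) and in normoxia replicate 3 it was 0.0735% (0.00891 to 0.265). Normoxia replicate 1 had 0 SLC2A3 counts among 2354 counts of the pair, which allows a share of up to 0.127% at a floor of 3 counts and of up to 0.157% as the upper bound of the exact interval. No hypoxia interval overlapped a normoxia interval. Hypoxia replicate 3 had a higher share than the other hypoxia libraries beyond counting error. Intervals and floors cover counting error only.

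**Figure D2:**
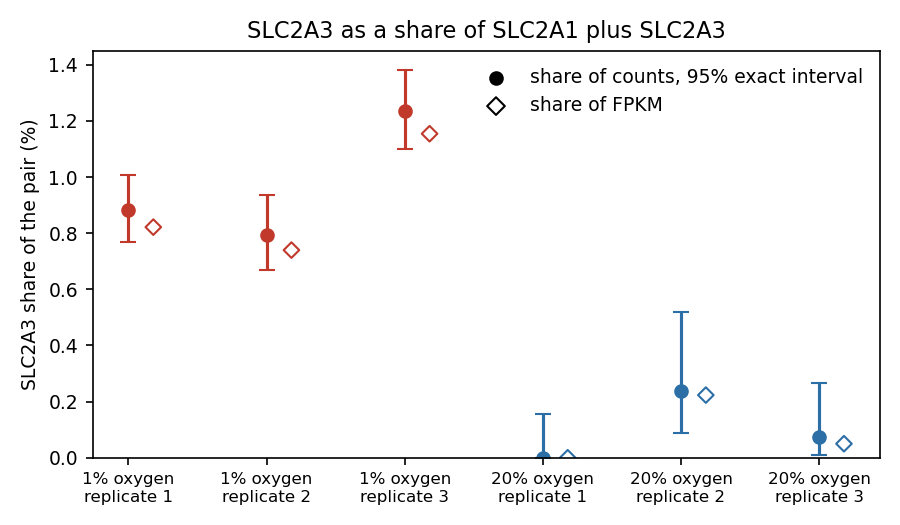
SLC2A3 as a percentage of SLC2A1 plus SLC2A3 in each library, from counts (filled circles, with exact 95% intervals) and from FPKM (open diamonds). The hypoxia libraries lie between 0.795% and 1.23% of counts and the normoxia libraries between 0% and 0.239%.

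The ratio of SLC2A3 to SLC2A1 was also taken within each library. On the log2 scale with 0.1 FPKM added to each gene it averaged -6.70 ± 0.31 in hypoxia and -7.38 ± 0.24 in normoxia (SD, n = 3 each), a difference of 0.68 (exact permutation test, two-sided, p = 0.10, the smallest it can give). That value depends on the pseudocount, and in normoxia replicate 1, where SLC2A3 was at 0, the ratio of -7.41 is set by the pseudocount and the FPKM of SLC2A1 alone. The difference was 2.96 with 0.01 FPKM added and 3.597 with 0.5 counts added to counts, and its sign turned to -1.69 with 1 FPKM added, a value close to the hypoxia level of SLC2A3 itself.

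Replicate spread differed between the genes. The coefficient of variation (CV, the SD over the mean) of SLC2A1 normalized counts was 7.58% in hypoxia and 5.52% in normoxia. Counting error alone would give 0.676% in hypoxia and 1.99% in normoxia. For entries within 2-fold of the SLC2A1 level, the median CV was 17.3% in hypoxia (130 entries) and 13.9% in normoxia (640 entries). Of these, 20.8% of the entries in hypoxia and 15.5% of those in normoxia had a smaller CV than SLC2A1. SLC2A3 had a CV of 28.6% in hypoxia, where counting error alone would give 6.77%, and the median of 818 entries near its level was 19.3%. In normoxia its CV was 118%, where 8 counts in all leave a counting part of 61.3%.

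The spread also depended on the scale. In FPKM the CV of SLC2A1 was 16.4% in hypoxia and 12.2% in normoxia. Hypoxia replicate 2 had a recovered scale of 0.844 but a library total implied by FPKM of 1.04, relative to a geometric mean of 1 over the 6 libraries, and it held the lowest value of both genes in its group on both scales. Without it, the log2 fold change was 3.34 for SLC2A1 and 6.61 for SLC2A3.

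Lists of genes around glucose uptake together name 104 genes, 25 of them with an entry, of which 24 were called higher and 1 lower, also without hypoxia replicate 2. Among all 2675 fitted entries 100% were called, 56.7% as higher and 43.3% as lower, so that being called is fixed by the authors' selection and the direction alone is open. Of 14 facilitative transporter genes 3 had an entry, and 3 were called higher and 0 lower, where 56.7% of all fitted entries were called higher. The third was SLC2A13, which encodes a proton-coupled myo-inositol transporter. It held 1970, 1185 and 2233 normalized counts in hypoxia replicates 1 to 3 and 506, 589 and 967 normalized counts in normoxia replicates 1 to 3. The groups did not overlap but came close, where 56.6% of all fitted entries had all hypoxia values above all normoxia values. Hypoxia replicate 2 was again the lowest of its group. SLC2A13 had a ratio of 2.61 and a log2 fold change of 1.39 (SE 0.32, edgeR adjusted p = 0.00305), and lost its call with DESeq2 size factors over the listed entries (0.60, adjusted p = 0.0967; range over its count alternatives 4.17e-05 to 0.0967).

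Per length, the order of the listed family members was the same in both groups. SLC2A1 was highest, with SLC2A13 next at 6.82 ± 2.55 FPKM in hypoxia and 3.31 ± 1.36 FPKM in normoxia (SD, n = 3 each), and SLC2A3 was lowest. Neighbours in that order did not overlap across the libraries of a group: SLC2A13 lay between 3.97 and 8.89 FPKM in hypoxia, above the SLC2A3 maximum of 2.02 FPKM, and between 2.27 and 4.85 FPKM in normoxia, above the SLC2A3 maximum of 0.0455 FPKM. The other 11 genes of the family, SLC2A2 of hepatocytes and the insulin-regulated SLC2A4 among them, had no entry among those analysed here, which says nothing of their level.

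Of the 6 genes listed as sodium-coupled glucose transporters 1 had an entry. SLC5A11, which encodes a sodium-coupled transporter of myo-inositol and glucose, fell to 98.8 ± 26.6 normalized counts in hypoxia, against 938 ± 126 in normoxia (SD, n = 3 each; log2 fold change -3.25, SE 0.25, edgeR adjusted p = 2.27e-05), where 43.3% of all fitted entries were called lower. SLC5A3, a sodium-coupled myo-inositol transporter of the same family, was not on that list and was chosen after its values were seen. It went the other way, with 12586 ± 4589 normalized counts in hypoxia and 1330 ± 576 in normoxia (SD, n = 3 each). Its libraries lay between 7714 and 16826 normalized counts in hypoxia and between 822 and 1956 in normoxia, without overlap. The same held for 56.6% of all fitted entries, which had all hypoxia values above all normoxia values. None of the 11 genes for glucose phosphorylation and release, hexokinases included, had an entry, a count of 0 that follows from the authors' selection and not from a test here.

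Of 10 genes of lactate and proton export 4 had an entry, 4 called higher and 0 lower beside 56.7% higher among all fitted entries, with a median log2 fold change of 1.89 against 1.11 over all fitted entries. The lactate exporter SLC16A3 averaged 40876 ± 7206 normalized counts in hypoxia and 8932 ± 1538 in normoxia (SD, n = 3 each), a ratio of 4.58. Its chaperone BSG had a ratio of 2.88, and the cell-surface carbonic anhydrases CA9 and CA12 had ratios of 59.1 and 3.01. Of 23 genes of glycolysis 13 had an entry, 13 called higher and 0 lower beside the same 56.7%, with a median log2 fold change of 1.73. The ratio of SLC2A1, 9.74, lay above those of 10 of the 13 entries, which ran from 2.02 for the isomerase GPI to 6.55 for the phosphoglycerate kinase PGK1. They include the phosphofructokinases PFKL (2.36) and PFKP (2.95), the aldolase ALDOA (3.32), TPI1 (3.06), GAPDH (2.75) and the lactate dehydrogenase LDHA (3.94), as well as PFKFB2 (2.44) and PFKFB3 (3.33). It lay below those of the enolase ENO2 (20.6), the aldolase ALDOC (20.3) and PFKFB4 (15.7), which makes the activator of phosphofructokinase. The differences between these ratios were not tested, and every one of the entries had been selected as changed.

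Among 18 genes of transporter trafficking and turnover 1 had an entry. ARRDC3, an alpha-arrestin, averaged 4542 ± 1697 normalized counts in hypoxia and 635 ± 264 in normoxia (SD, n = 3 each), a ratio of 7.16. Of 22 genes for transcription factors and oxygen sensors tied to transporter genes 3 had an entry, 3 called higher and 0 lower, where 56.7% of all fitted entries were higher: CITED2, a HIF-induced protein that competes with HIF for its coactivators (ratio 8.81), the zinc finger factor KLF6 (3.65) and the GC-box factor SP3 (2.23). HIF1A, EPAS1 and MYC had no entry among those analysed here. With DESeq2 size factors over the listed entries, SP3, GPI, PFKL and PFKFB2 lost their calls besides SLC2A13, and with TMM GPI did.

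**Figure D3:**
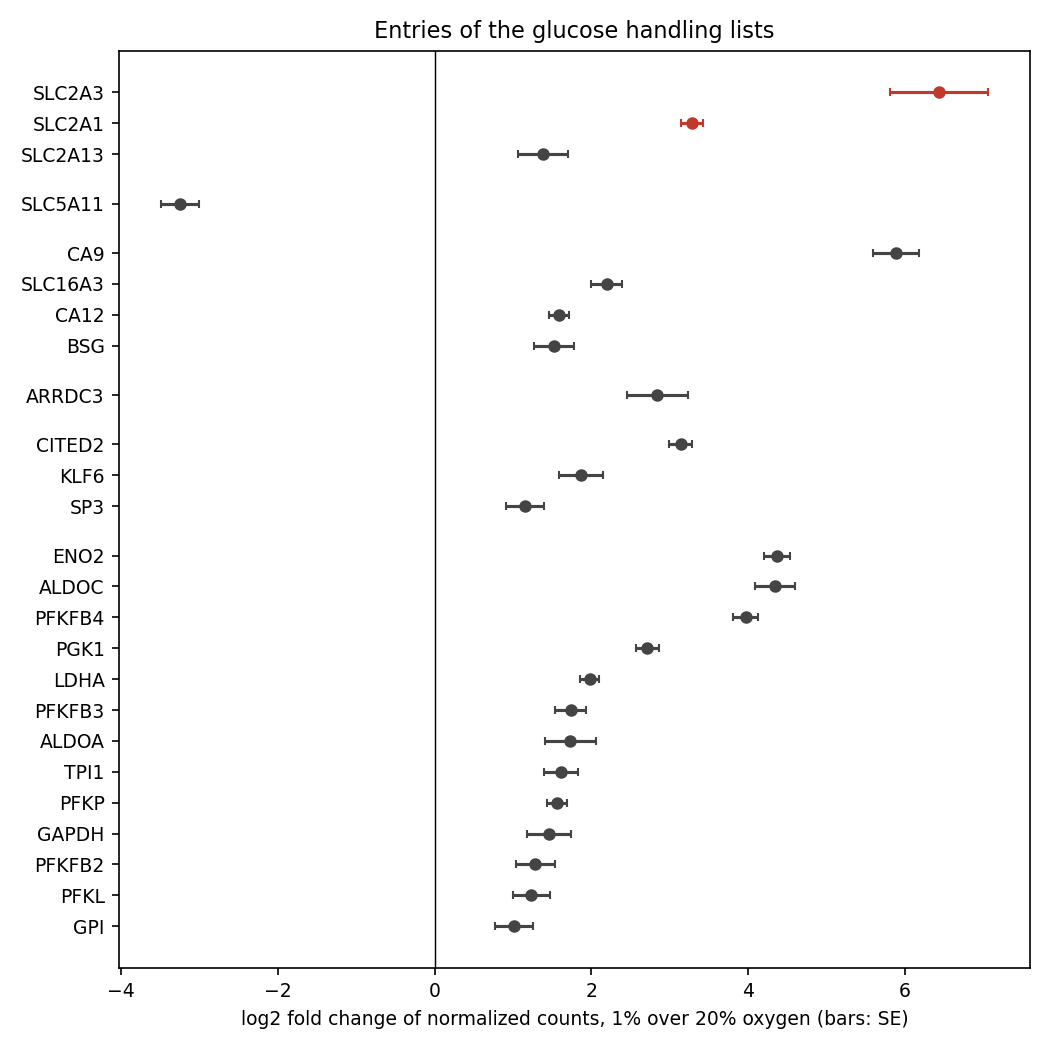
Log2 fold change of normalized counts (1% over 20% oxygen, bars are SE) for the 25 listed entries, in blocks by list: facilitative transporters, sodium-coupled transporters, lactate and proton export, trafficking, transcription factors, glycolysis. SLC2A3 (6.44) and SLC2A1 (3.28) are in red, and SLC5A11 (-3.25) is the 1 entry to the left of 0.

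On normalized counts, 1 library at each oxygen level was the extreme one of its group for most of these entries. Hypoxia replicate 2 was the highest of its group for 14 of the 25 entries and the lowest for 10, where over all fitted entries it was highest for 46.8% and lowest for 39.8%. Normoxia replicate 1 was likewise the highest of its group for 14 of the 25 entries and the lowest for 9, where over all fitted entries it was highest for 43.4% and lowest for 39.2%. The entries were shared. All 14 that were highest in hypoxia replicate 2 were also highest in normoxia replicate 1, among them GAPDH, TPI1, ALDOA, PGK1, CA9 and SLC16A3. That order depended on the scale. In FPKM, PGK1, ENO2, PFKP and PFKFB4 were lowest in hypoxia replicate 2 (PGK1 1242, against 1372 and 1284 in replicates 1 and 3). The others of the 14 stayed highest there. In normoxia replicate 1, PGK1, PFKP, PFKFB4 and ALDOC were not highest in FPKM, and the others of the 14 were. On normalized counts, all 9 that were lowest in normoxia replicate 1 were also lowest in hypoxia replicate 2. They included SLC2A1, SLC2A3, SLC2A13 and ARRDC3. The pattern on normalized counts spans the table. Of all fitted entries highest in hypoxia replicate 2, 73.9% were also highest in normoxia replicate 1. Of those lowest in normoxia replicate 1, 74.5% were also lowest in hypoxia replicate 2. What sets these libraries apart was not tested. SLC2A1 deviated from its group mean by -0.13 on the log2 scale in hypoxia replicate 2 and by -0.09 in normoxia replicate 1. On normalized counts its CV was the fifth lowest of the 25 entries in hypoxia and the third lowest in normoxia. The medians of the 25 were 25.8% in hypoxia and 20.4% in normoxia. In FPKM the CV of SLC2A1 was larger, 16.4% in hypoxia and 12.2% in normoxia, so these ranks hold for normalized counts only.

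**Figure D4:**
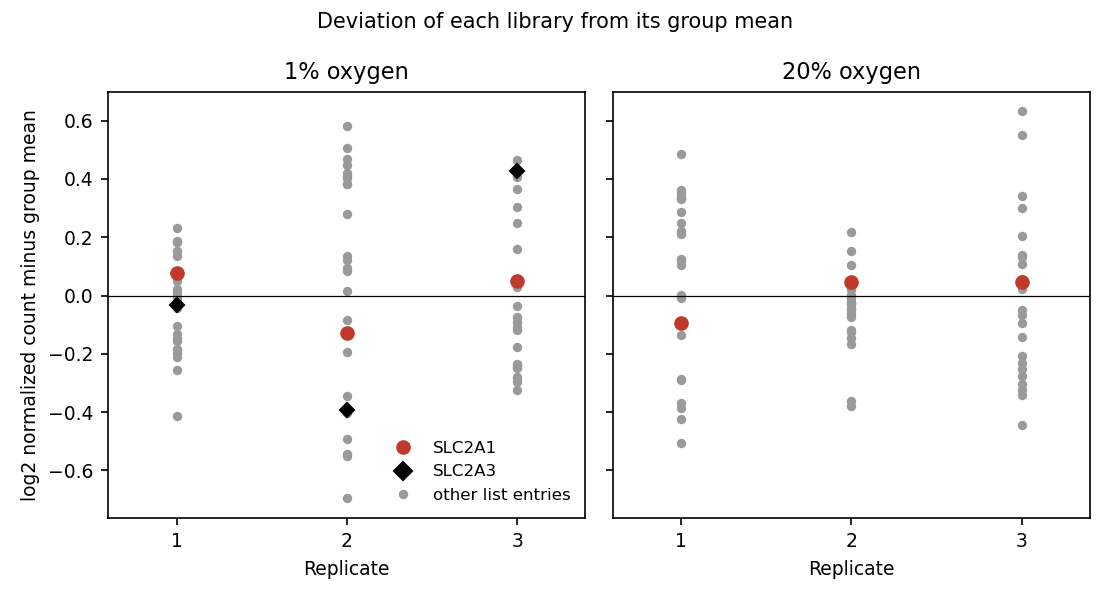
Log2 normalized count of each listed entry minus the mean of its group, by replicate, at 1% (left) and 20% oxygen (right). SLC2A1 (red) stays within 0.13 of its mean; SLC2A3 (black diamonds) is drawn in hypoxia alone because 1 normoxia library has 0 counts; the other entries are grey.

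The entries whose profiles lay nearest to each gene were found by the Euclidean distance between log2(normalized count + 1) values over the 6 libraries, centred on each gene's mean, among 2484 named entries with at least 10 normalized counts on average. Nearest to SLC2A1 were ZNF395 (distance 0.21), ATP10A (0.22), PLAT (0.23), CITED2 (0.24) and DUSP1 (0.34), where the median candidate lay at 2.83. ZNF395 averaged 9200 ± 750 normalized counts in hypoxia and 874.5 ± 102.95 in normoxia (SD, n = 3 each), a ratio of 10.5. PLAT, the tissue plasminogen activator, had a ratio of 9.79. Nearest to SLC2A3 were PRSS50 (1.58), KRT17 (1.59), PDGFB (1.88), BICDL2 (1.92) and H4C8 (2.004), against a median of 6.89. PRSS50 averaged 127 normalized counts in hypoxia and 0.980 in normoxia, KRT17 averaged 132 in hypoxia and 0.653 in normoxia, and BICDL2 averaged 209 in hypoxia and 3.59 in normoxia, so these 3 were, like SLC2A3, near 0 at 20% oxygen. PDGFB, with 8272 in hypoxia and 57.5 in normoxia, and H4C8, with 6731 in hypoxia and 137 in normoxia, were not. With 2 groups and 6 libraries, such distances mostly restate the size of the fold change.

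SLC2A3 is a marker of neurons and is also expressed in leukocytes, so markers of other cells were read beside it. Of 10 neuron markers 1 had an entry, TUBB3, with between 11934 and 17989 normalized counts in hypoxia and between 5145 and 8516 in normoxia. Of 9 leukocyte markers 1 had an entry, CD68, with between 7985 and 10558 normalized counts in hypoxia and between 2093 and 2559 in normoxia. Of 8 endothelial markers 2 had an entry, CDH5 and EGFL7, which summed to between 1593 and 3822 normalized counts in hypoxia and between 187 and 361 in normoxia. Of 8 erythroid and 9 fibroblast markers 0 had an entry. None of the markers with an entry was at 0 in all normoxia libraries, and their part in the SLC2A3 result was not tested. Hep3B is a single cell line, and in such bulk libraries more cells that express a gene and more RNA per cell cannot be told apart.

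The direction and call of both genes were read under other settings. The count-based log2 fold change of SLC2A1 lay between 2.50 and 3.34 over 12 alternatives and that of SLC2A3 between 5.67 and 7.77.

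**Figure D5:**
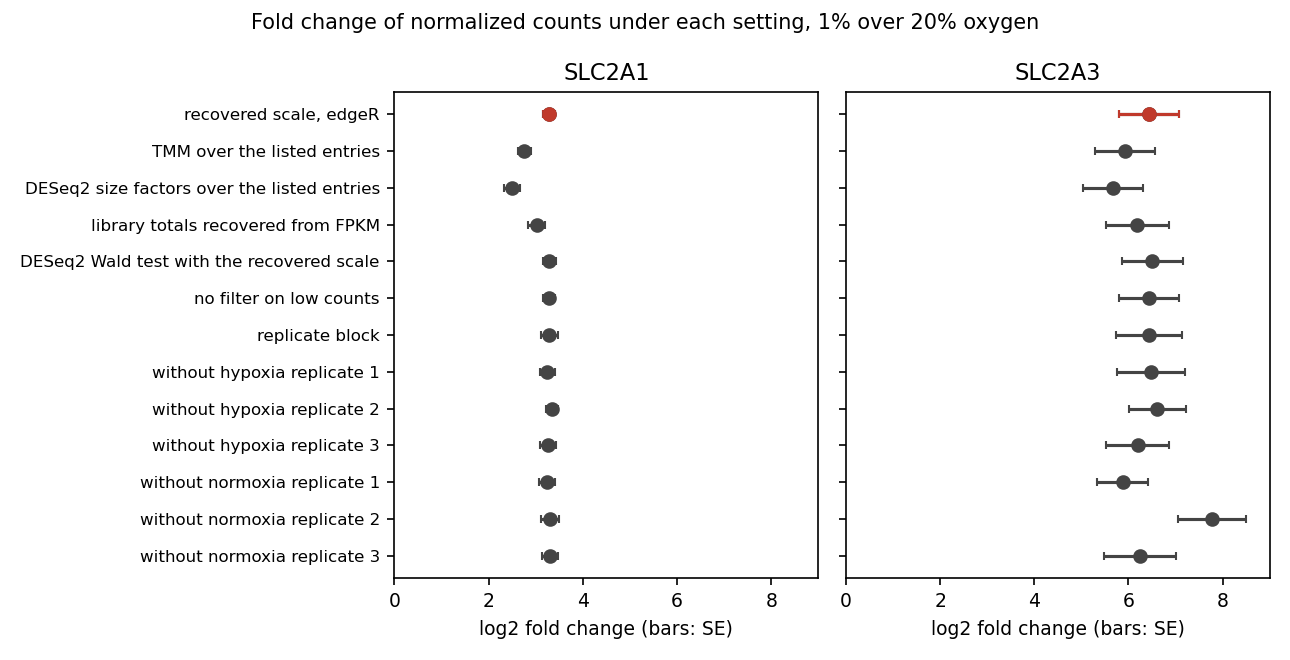
Log2 fold change of SLC2A1 (left) and SLC2A3 (right), 1% over 20% oxygen, with the recovered scale (red, top) and under each of 12 alternatives; bars are SE. Settings that rescale the libraries shift both genes down together, to 2.50 for SLC2A1 and 5.67 for SLC2A3 with DESeq2 size factors, and leaving out normoxia replicate 2 shifts SLC2A3 up to 7.77.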

How the data were processed

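RNA libraries were made with a SMARTER kit from TRIzol-extracted RNA, per the labels' protocols. The sources used here name no aligner, counting tool, strand setting, annotation or build. Per the file headers, the deposited table gives read counts (whole numbers, not normalized), FPKM values, an adjusted p-value (FDR) and a log2 fold change from the authors' comparison, positive for entries higher at 1% oxygen. Sample columns were matched to titles by oxygen level and number.

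Because the authors listed only changed entries, TMM was not used for the main fit. The scale of each library was instead computed from the deposited log2 fold changes and counts over 1442 entries with more than 200 counts per library (median absolute residual 0.000202). Normalized counts are counts over that scale. Entries departing by more than 1 from their own counts (6) were left out. edgeR 4.0.16 (quasi-likelihood, filterByExpr, which removed none of 2675 entries) and limma 3.58.1 on log2(FPKM + 0.1) were run on R 4.3.3, with Benjamini-Hochberg adjustment at 0.05. DESeq2 1.42.0 was an alternative. Scripts were tested on simulated data. Genes named with expression values are the members, list members with an entry and the 5 nearest profiles of each member. Cell type markers with an entry are also named, as is SLC5A3, which was chosen after its values were seen. Coding sequences took the place of the planned protein comparison. The members and lists were chosen with earlier results of these data known.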

Additional observations from a re-analysis of the deposited data

How the results depend on the processing

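All 12 count alternatives kept the direction and call of SLC2A1 and SLC2A3, as did the 10 FPKM alternatives. Over the same 12 count alternatives, between 2154 and 2675 of the 2675 fitted entries were called, so a kept call has little weight. Most count alternatives also reuse the library scale computed from the authors' fold changes. With one library left out, the log2 fold change ran from 3.24 to 3.34 for SLC2A1 and from 5.87 to 7.77 for SLC2A3, and the difference in SLC2A3 share from 0.690 to 0.897 percentage points. The log2 ratio difference reversed to -1.69 with 1 FPKM added, by that pseudocount's size relative to SLC2A3. The median log2 fold change of all entries shifted by -0.78 with DESeq2 size factors over the listed entries and by -0.53 with TMM. With those DESeq2 size factors 997 entries were called higher, against 1518. Deviations of same-numbered libraries had correlations of -0.35, -0.12 and 0.43, and hypoxia replicate 2 with normoxia replicate 1 had 0.57. With 3 libraries per group, centred on the group mean, these correlations cannot decide whether the numbers pair the libraries. With the replicate block, the log2 fold change was 3.28 for SLC2A1 and 6.44 for SLC2A3, the share differed by 0.814 points and no call of these 2 genes changed. The FPKM call of SLC2A13 was lost without hypoxia replicate 1 or 3 or normoxia replicate 1 or 2 (limma adjusted p from 0.0711 to 0.0904). Depth limits SLC2A3 at 20% oxygen, which rests on 8 counts.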
